A study of Mus musculus with 6 samples.

Results

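Cytosolic ribosomal protein genes are the genes for the proteins that, with ribosomal RNA, build the small (40S) and large (60S) subunit of the ribosome in the cytosol. They were found by name: a symbol of *Rps* or *Rpl* followed by a protein number with at most a letter and a digit, or *Rplp0*, *Rplp1* or *Rplp2*, with pseudogenes named -ps left out. This gave 87 of the 31950 genes measured. *Rpsa*, the gene of a 40S protein, does not match the pattern as written and is given apart. Of the 87 genes, 76 are protein-coding genes of the ribosome, 6 are paralogs of such genes (*Rpl3l*, *Rpl7l1*, *Rpl10l*, *Rpl22l1*, *Rpl39l* and *Rps27l*) and 5 are annotated as processed pseudogenes (*Rpl6l*, *Rpl32l*, *Rps3a2*, *Rps3a3* and *Rps4l*).

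The study compared the polyadenylated RNA of 3 WT livers with that of 3 *β-catenin Δ(ex3)/+* livers, 1 library per liver. All were labelled as C57BL/6 mice aged 8 weeks. The mutant livers carried 1 *Ctnnb1* allele without exon 3, which leaves a stabilised β-catenin, beside 1 intact allele. In the study, exon 3 was deleted in hepatocytes of mice with this name by tamoxifen and a Cre recombinase driven by the albumin promoter, and in other mice by an adenovirus carrying Cre; the route is not stated separately for the RNA, and neither is whether the WT mice received the same agent. Values are FPKM, fragments scaled by the length of the transcripts and by the size of the library. From steps in the low values of genes with a single exon, the depth, in units of 1e6 fragments, was estimated as 24.7, 24.6 and 24.4 in the WT livers and as 19.1, 17.0 and 19.5 in the mutant livers, in the order of their numbers. Between 20.4% and 28.4% of those values lay on a step, against 4% by chance, and a doubled depth held slightly more of them in each liver, so these depths are uncertain.

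Ribosomal protein mRNAs are among the most abundant mRNAs of any growing cell, and their products are made in matched amounts because each ribosome holds a single copy of nearly every protein. Many of these mRNAs begin with a C and a run of pyrimidines, a terminal oligopyrimidine (TOP) start through which mTOR and LARP1 set how much of them is translated. In the liver, ribosome production rises when hepatocytes grow or regenerate and falls on fasting.

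The labels were checked first. *Ctnnb1* had 25.9, 28.0 and 27.3 FPKM in the WT livers and 25.4, 25.2 and 25.04 FPKM in the *β-catenin Δ(ex3)/+* livers. By the test described below, this log2 difference of -0.097 did not pass (limma adjusted p = 0.0935). It passed as lower with TPM (-0.17, limma adjusted p = 0.0188), median-ratio scaling (-0.28, limma adjusted p = 0.00224) and quantile normalization (-0.39, limma adjusted p = 0.00109). A value per gene cannot show the loss of exon 3. *Glul*, a β-catenin target that encodes glutamine synthetase, had 102.6, 104.6 and 102.4 FPKM in WT livers and 626, 633 and 619 FPKM in mutant livers. By the test described below, 10 of 11 targets on the list were higher in mutant livers, where 37.4% of all tested genes were higher. The other target, *Cyp2e1*, was lower (log2 fold change -0.23, limma adjusted p = 0.0112), where 19.6% of all tested genes were lower. The libraries of the 2 groups differed in genes of the young liver, although all are labelled 8 weeks, and in sex-linked genes, for which no label gives the sex. *H19*, an RNA of the fetal and newborn liver, had 2320, 2374 and 2364 FPKM in the libraries labelled WT and 0.011, 0.048 and 0.019 FPKM in the others, and *Afp* had 601, 612 and 610 FPKM against 2.48, 2.38 and 2.81 FPKM. *Xist*, made from the inactive X chromosome of females, had 20.3, 22.2 and 21.1 FPKM in the libraries labelled WT and 0.015, 0 and 0.013 FPKM in the others, while the Y-linked *Eif2s3y* was listed at 0.017, 0 and 0 against 9.94, 9.20 and 9.37 FPKM. Genotype, sex and the state marked by these genes of the young liver cannot be told apart in any difference below, since each separates all 3 livers of a group from all 3 of the other.

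The 87 genes together took up 2.98%, 2.88% and 3.04% of the summed FPKM in WT livers and 2.25%, 2.24% and 2.21% in *β-catenin Δ(ex3)/+* livers. Every mutant liver lay below every WT liver, and the spread within each group was small beside the gap. The mean was 2.97% ± 0.079 (SD, n = 3) in WT and 2.23% ± 0.023 (SD, n = 3) in mutant livers. Their summed level was 13246, 12881 and 13536 FPKM in WT livers and 10426, 10543 and 10420 FPKM in mutant livers, a change of -20.9%. A few secreted proteins fill much of a liver library: albumin alone was 9.29%, 9.70% and 8.90% of the summed FPKM in WT livers and 5.35%, 5.32% and 5.24% in mutant livers. Without the 50 most abundant genes, the ribosomal protein genes made up 6.56%, 6.43% and 6.64% in WT livers and 4.48%, 4.56% and 4.44% in mutant livers. In bulk RNA, fewer cells of a type and less RNA per cell cannot be told apart.

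Each gene with a mean of at least 0.5 FPKM was tested on log2(FPKM + 1) with limma, with adjustment over all 13243 genes tested. Adding 1 makes folds of scarce mRNAs look smaller than they are. Of the 87 ribosomal protein genes 84 passed this filter. At an adjusted p under 0.05, 62 of the 84 were lower in mutant livers, where 19.6% of all tested genes were lower, and 5 were higher, where 37.4% of all tested genes were higher. The 84 genes had a median level of 105 FPKM, beside 3.24 FPKM over all tested genes. Among the 1775 other genes with a mean of at least 20 FPKM, 26.6% were lower and 50.6% higher. All 3 mutant livers lay below all 3 WT livers for 66 of the 84, as for 23.0% of all tested genes, and above them for 5, as for 43.0% of all tested genes. The median log2 fold change was -0.41 over the 84 genes and 0.14 over all tested genes. Most of the changes were below the 2-fold threshold of the study. On the FPKM as deposited, only *Rpl17* and *Rps27a* passed it downward, as did 4.52% of all tested genes, and none passed it upward, as did 8.17% of all tested genes. That count depended on the processing. Among the alternatives run, the log2 fold change reached -1.17 for *Rps27*, -1.24 for *Rpl35a*, -1.16 for *Rps7* and -1.14 for *Rpl3*. The adjusted p of these genes stayed under 0.05 in each alternative. With median-ratio scaling the all-gene median moved from 0.14 to 0.0081 and the ribosomal protein median to -0.60, and 70 genes were lower and 3 higher. With quantile normalization the all-gene median was -0.018, the ribosomal protein median -0.66, and 72 were lower and 2 higher. Those scalings also changed the balance over all genes, from 19.6% lower and 37.4% higher to 27.0% and 27.1% with median-ratio scaling and to 29.1% and 25.3% with quantile normalization.

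**Figure D1:**
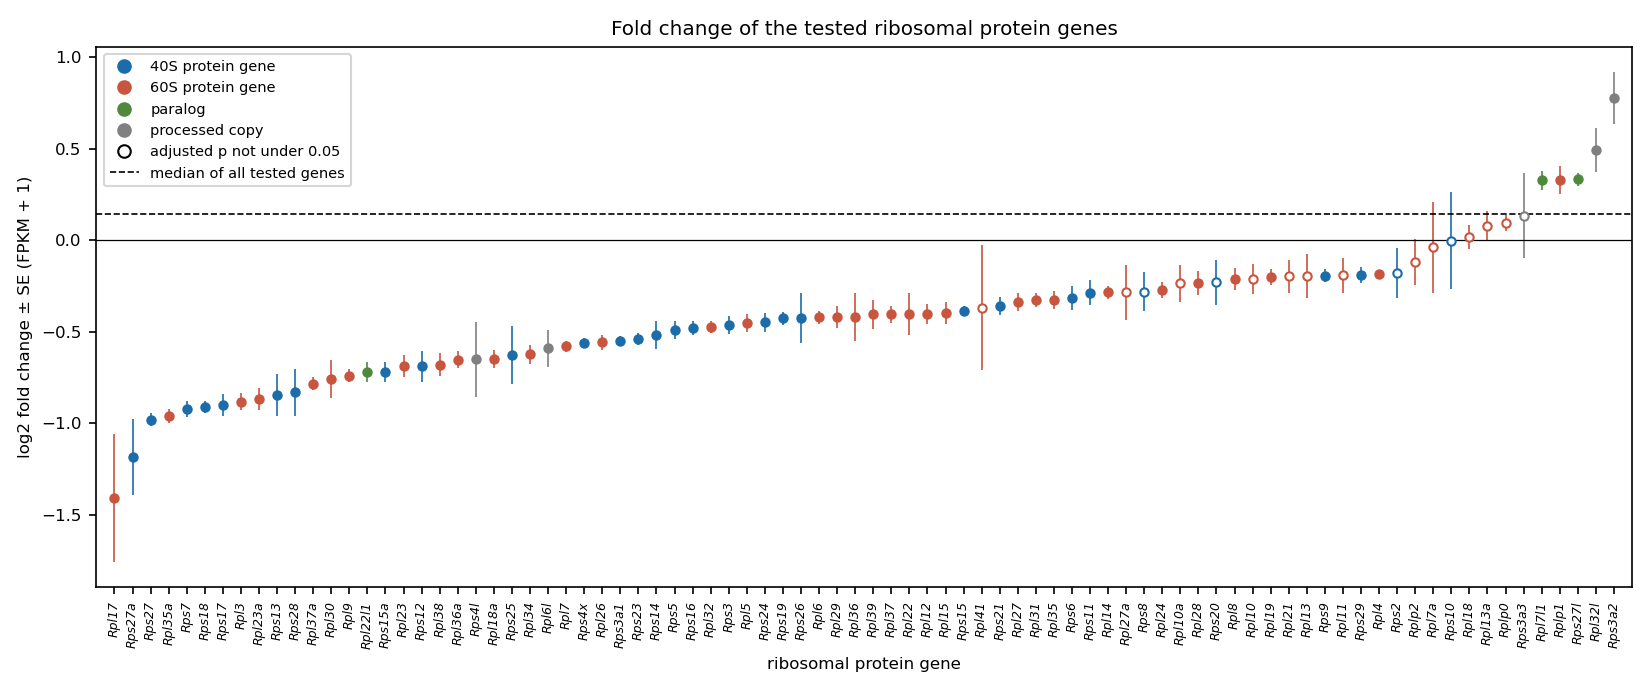
Log2 fold change of each of the 84 tested ribosomal protein genes, mutant over WT livers on the log2(FPKM + 1) scale, with its standard error, in order of size; open circles have a limma adjusted p that is not under 0.05 and the dashed line is the median of all tested genes (0.14). The protein-coding genes of both subunits lie mostly between -1 and 0, and 4 of the 5 genes that were higher are paralogs or processed pseudogenes; *Rplp1*, the other, no longer passed with median-ratio scaling or quantile normalization.

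Among the 76 protein-coding genes of the ribosome, 59 were lower, 1 was higher and 16 did not pass; here and in the counts by subunit, 19.6% lower and 37.4% higher over all tested genes is the share to read them beside. All 30 genes of the 40S subunit had a negative fold change, with a median of -0.48, and 26 of them passed. Of the 46 genes of the 60S subunit 33 were lower and 1 was higher, with a median of -0.40. The difference between the subunits was not tested.

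*Rps27*, which encodes a zinc-finger protein of the 40S subunit, had 230.2, 243 and 232 FPKM in WT livers and 117, 122 and 118 FPKM in mutant livers. The mutant livers held close to equal values at a level far below any WT liver. Its log2 fold change was -0.98 (SE 0.035, limma adjusted p = 4.19e-06), a change of -49.5%. *Rps18*, a protein of the 40S head, had 155, 163 and 155 FPKM in WT livers and 83.7, 82.9 and 83.03 FPKM in mutant livers. The groups did not overlap, and the log2 fold change was -0.91 (SE 0.032, limma adjusted p = 4.1e-06). *Rps7* had 138, 147 and 136 FPKM in WT livers and 75.5, 73.3 and 72.1 FPKM in mutant livers, again without overlap. Its log2 fold change was -0.92 (SE 0.041, limma adjusted p = 1.1e-05). Smaller changes were found for *Rps15* and *Rps3a1*, the most abundant 40S genes. *Rps15* had 606, 606 and 614 FPKM in WT livers and 465, 461 and 473 FPKM in mutant livers. These are narrow groups with a clear gap, at a log2 fold change of -0.38 (SE 0.023, limma adjusted p = 3.73e-05). *Rps3a1* had 443, 444 and 452 FPKM in WT livers and 311, 300.2 and 302 FPKM in mutant livers, so the groups were again apart. Its log2 fold change was -0.55 (SE 0.027, limma adjusted p = 1.49e-05). *Rps6*, the 40S protein phosphorylated by S6 kinase, had 260, 268 and 228 FPKM in WT livers and 206, 193 and 205 FPKM in mutant livers. WT replicate 3 was the lowest of its group and still above each mutant liver, and the log2 fold change was -0.32 (SE 0.067, limma adjusted p = 0.00836).

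Loss of a single copy of *Rps19*, *Rps24*, *Rpl35a* or several other ribosomal protein genes causes Diamond-Blackfan anaemia in people. Of 9 genes of that disease among the members, 7 were lower and none was higher, where 19.6% of all tested genes were lower and 37.4% higher; the median was -0.45. *Rpl35a* had 61.7, 61.1 and 60.3 FPKM in WT livers and 32.2, 30.2 and 30.3 FPKM in mutant livers. Replicates agreed closely in both groups, and the log2 fold change was -0.96 (SE 0.039, limma adjusted p = 6.82e-06). *Rps19*, needed to process the 3′ end of 18S ribosomal RNA, had 45.9, 46.5 and 48.4 FPKM in WT livers and 34.8, 34.6 and 34.5 FPKM in mutant livers. All mutant livers were lower, at a log2 fold change of -0.43 (SE 0.036, limma adjusted p = 0.000158). *Rpl5* and *Rpl11* bind the 5S ribosomal RNA and, when free, hold back MDM2. *Rpl5* had 80.5, 85.7 and 88.3 FPKM in WT livers and 62.2, 63.4 and 59.4 FPKM in mutant livers. The groups were apart, with a log2 fold change of -0.45 (SE 0.048, limma adjusted p = 0.000425). *Rpl11* had 106, 135 and 109 FPKM in WT livers and 101.8, 98.5 and 104.6 FPKM in mutant livers. WT replicate 2 stood above the rest, and the difference of -0.19 (SE 0.095) did not pass (limma adjusted p = 0.134) on the FPKM as deposited, but passed with median-ratio scaling (-0.38, limma adjusted p = 0.0178) and quantile normalization (-0.43, limma adjusted p = 0.0154).

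All 6 listed proteins around the exit of the peptide tunnel of the 60S subunit (*Rpl17*, *Rpl23a*, *Rpl26*, *Rpl31*, *Rpl35* and *Rpl39*) had lower mRNA in mutant livers, with a median of -0.48. Over all tested genes 19.6% were lower and 37.4% higher. *Rpl23a* had 238, 252 and 264 FPKM in WT livers and 144, 128 and 139.5 FPKM in mutant livers. The highest mutant liver was well below the lowest WT liver, and the log2 fold change was -0.87 (SE 0.061, limma adjusted p = 7.04e-05). *Rpl36*, the most abundant 60S gene after *Rplp1*, had 638, 469 and 654 FPKM in WT livers and 439, 439 and 424 FPKM in mutant livers. WT replicate 2 was close to the mutant livers, and the log2 fold change of -0.42 (SE 0.129, limma adjusted p = 0.0335) did not pass with no filter (adjusted p = 0.0629), with any mutant liver left out, without WT replicate 1 (adjusted p = 0.0983) or without WT replicate 3 (adjusted p = 0.0921).

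Of the 3 genes of the stalk, the flexible arm of the 60S subunit that recruits translation factors, 1 was higher and the other 2 did not pass. That share of higher genes, 33.3%, was close to the 37.4% of all tested genes, of which 19.6% were lower. *Rplp1*, the most abundant member, had 1109, 933 and 1141 FPKM in WT livers and 1321, 1328 and 1333 FPKM in mutant livers. All mutant livers were above all WT livers. The log2 fold change was 0.33 (SE 0.077, limma adjusted p = 0.0123), but it fell short of the threshold with median-ratio scaling (0.13, limma adjusted p = 0.171) and quantile normalization (0.064, limma adjusted p = 0.446). *Rplp0* had 319, 303 and 336 FPKM in WT livers and 347, 336 and 339.5 FPKM in mutant livers. The groups overlapped, and the log2 difference of 0.095 (SE 0.044, limma adjusted p = 0.109) changed sign under those scalings, to -0.0984 and -0.0872, and passed without WT replicate 3 (0.13, limma adjusted p = 0.0355). *Rplp2* had 113, 80.4 and 108 FPKM in WT livers and 93.1, 91.1 and 90.05 FPKM in mutant livers. Here WT replicate 2 was below every mutant liver; the log2 difference was -0.12 (SE 0.128, limma adjusted p = 0.461), but it passed without that liver (-0.27, limma adjusted p = 0.00238) and with quantile normalization (-0.36, limma adjusted p = 0.0443).

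Ribosomal protein genes have many processed pseudogenes, copies of the mRNA inserted elsewhere in the genome, and fragments from a gene and its near-identical copies can be shared out between them. Among the deposited genes, 720 annotated pseudogenes matched a member at 90% identity or more over at least 80% of its coding sequence, and 71 members had at least 1 such copy. In a count chosen after seeing the data, the FPKM of these copies, weighted by length, were added to their gene. *Rpl17*, at the tunnel exit, had the largest decrease of all members as deposited, with 129.7, 85.5 and 51.9 FPKM in WT livers and 26.2, 40.8 and 27.2 FPKM in mutant livers. Its WT livers were spread widely, though all were above the mutant livers, and the log2 fold change was -1.41 (SE 0.351, limma adjusted p = 0.0157). Leaving out mutant replicate 1 (limma adjusted p = 0.0527) or mutant replicate 3 (limma adjusted p = 0.0511) took it over the threshold. With its 33 copies added, *Rpl17* had 288, 298 and 294 FPKM in WT livers and 161, 178 and 170.4 FPKM in mutant livers. The wide spread among the WT livers was gone, and the log2 fold change became -0.79 (SE 0.044, limma adjusted p = 2.25e-05).

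**Figure D2:**
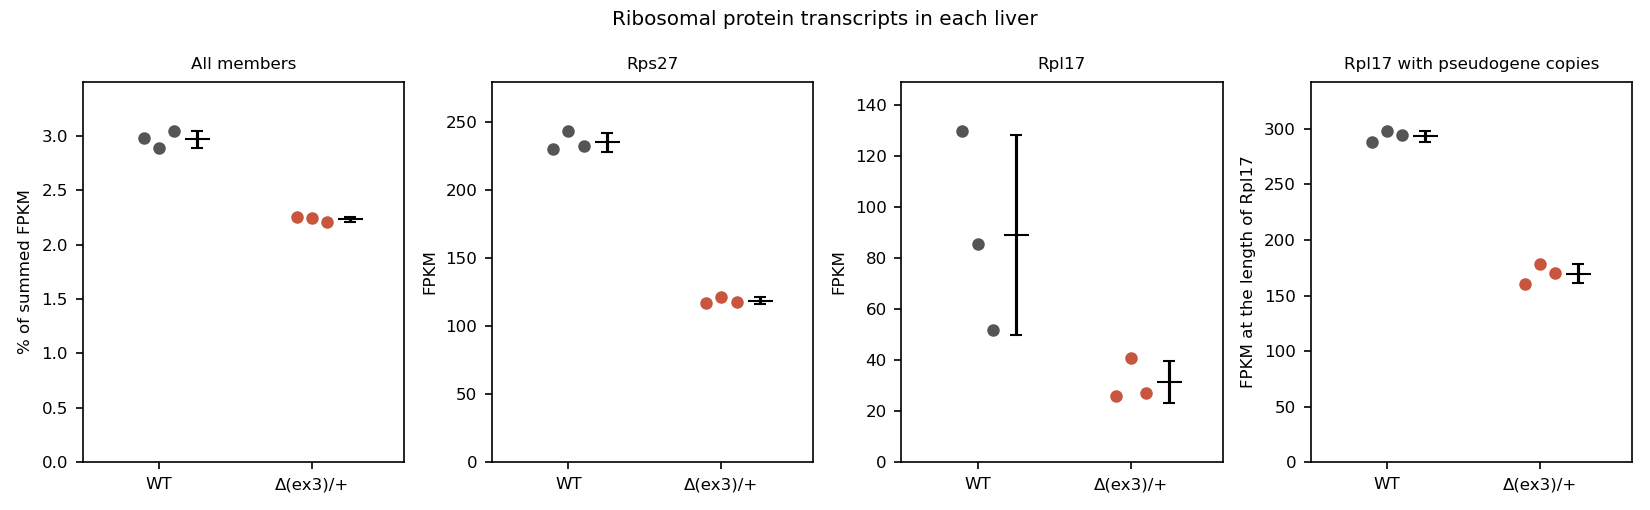
Values of each liver (points) with the mean and SD of each group of 3: the share of the summed FPKM taken by all 87 genes, the FPKM of *Rps27*, the FPKM of *Rpl17*, and the FPKM of *Rpl17* with its 33 pseudogene copies added. Mutant livers lie below WT livers in each panel, and adding the copies narrows the WT values of *Rpl17* from 51.9 to 129.7 FPKM to a range of 288 to 298 FPKM.

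*Rps27a*, which encodes ubiquitin fused to a 40S protein, had 129, 106 and 144 FPKM in WT livers and 47.5, 46.1 and 74.1 FPKM in mutant livers. *β-catenin Δ(ex3)/+* replicate 3 was the highest of its group and below all WT livers, and the log2 fold change was -1.18 (SE 0.209, limma adjusted p = 0.00389). With its 11 copies added, it had 162, 165 and 164 FPKM in WT livers and 100.4, 80.7 and 89.2 FPKM in mutant livers, a log2 fold change of -0.86 (SE 0.078, limma adjusted p = 0.000193), so neither gene passed the 2-fold threshold once its copies were counted. For *Rpl21* 81.5% of the summed signal was in 67 copies. As deposited it had 15.2, 18.7 and 18.3 FPKM in WT livers and 16.0, 15.1 and 13.9 FPKM in mutant livers, which overlap, with a log2 difference of -0.20 (SE 0.092, limma adjusted p = 0.114). Summed with its copies it had 101.2, 109 and 102.5 FPKM in WT livers and 72.4, 71.4 and 69.6 FPKM in mutant livers, a log2 fold change of -0.55 (SE 0.040, limma adjusted p = 7.67e-05). For *Rpl10* the sum reversed a difference that had not passed, from -0.21 (SE 0.081, limma adjusted p = 0.0675) to 0.0039 (limma adjusted p = 0.962). Without the sum it passed as lower with TPM (-0.28, limma adjusted p = 0.0289), median-ratio scaling (-0.40, limma adjusted p = 0.00649) and quantile normalization (-0.44, limma adjusted p = 0.00534). Over the 33 protein-coding genes with at least 10% of their sum in copies, the median coefficient of variation was 6.88% in WT and 4.02% in mutant livers as deposited, and 3.98% and 2.85% with copies added. After the sum 63 of 80 tested members were lower and 3 were higher, where 19.9% of all genes tested in that fit were lower and 37.7% higher; the median of the members was -0.41.

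The paralogs did not all move with their parent genes. *Rps27l*, a paralog of *Rps27* that p53 can induce, had 105.1, 113 and 110 FPKM in WT livers and 137, 139 and 137 FPKM in mutant livers. All mutant livers were higher, opposite to *Rps27*, at a log2 fold change of 0.33 (SE 0.036, limma adjusted p = 0.000465). *Rpl7l1* had 16.4, 18.4 and 16.6 FPKM in WT livers and 21.8, 21.5 and 22.0 FPKM in mutant livers, also without overlap. Its log2 fold change was 0.33 (SE 0.053, limma adjusted p = 0.00284), which did not pass with median-ratio scaling (0.14, limma adjusted p = 0.0766) or quantile normalization (0.032, limma adjusted p = 0.684), whereas *Rpl7* had a log2 fold change of -0.58 (SE 0.030, limma adjusted p = 1.9e-05). *Rpl22l1* had 29.9, 33.0 and 31.9 FPKM in WT livers and 19.4, 17.9 and 19.1 FPKM in mutant livers. It was lower like its parent, with a log2 fold change of -0.72 (SE 0.055, limma adjusted p = 9.98e-05) beside -0.40 (SE 0.115, limma adjusted p = 0.026) for *Rpl22*, which did not pass without mutant replicate 1 (limma adjusted p = 0.0628) or mutant replicate 2 (limma adjusted p = 0.079). *Rpl3l*, known from muscle, and *Rpl39l* and *Rpl10l*, known from testis, were under the filter, and *Rpl10l* was listed at 0 in all 6 livers. Of the 5 processed pseudogenes, *Rps3a2* had 4.55, 4.98 and 4.05 FPKM in WT livers and 9.83, 9.17 and 6.66 FPKM in mutant livers. It lay above the WT range in each mutant liver (log2 fold change 0.78, SE 0.145, limma adjusted p = 0.00486), while *Rps3a1*, its source by sequence, was lower. Likewise *Rpl32l* was higher at 0.49 (SE 0.119, limma adjusted p = 0.014), though not with quantile normalization (0.36, limma adjusted p = 0.0541), and *Rpl32* lower at -0.47 (SE 0.032, limma adjusted p = 6.54e-05). *Rpl6l* (-0.59, limma adjusted p = 0.00317) and *Rps4l* (-0.65, limma adjusted p = 0.0361) were lower, and *Rps3a3* did not pass (0.13, limma adjusted p = 0.646). The call of *Rps4l* was lost with no filter (limma adjusted p = 0.066) and without WT replicate 1 (0.105), WT replicate 3 (0.104), mutant replicate 2 (0.104) or mutant replicate 3 (0.0888).

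Ribosomal proteins whose genes fall outside the naming pattern gave mixed values. *Rpsa* had 137, 144 and 140.4 FPKM in WT livers and 151, 148 and 151 FPKM in mutant livers. The groups did not overlap at a log2 difference of 0.094 (SE 0.031, limma adjusted p = 0.0423), which turned to -0.0986 (limma adjusted p = 0.0431) with median-ratio scaling and -0.11 (limma adjusted p = 0.018) with quantile normalization. That difference also missed the threshold with TPM (0.023, limma adjusted p = 0.586), without a trend (limma adjusted p = 0.126), with no filter (limma adjusted p = 0.055) and without a liver for 5 of the 6 livers. *Fau*, the ubiquitin-like fusion to a 40S protein, had 365, 314 and 375 FPKM in WT livers and 223, 217 and 220.05 FPKM in mutant livers. It was lower in all mutant livers at a log2 fold change of -0.67 (SE 0.070, limma adjusted p = 0.000419). *Rack1*, a scaffold on the 40S subunit, did not pass (-0.17, SE 0.118, limma adjusted p = 0.26), but passed as lower with median-ratio scaling (-0.36, limma adjusted p = 0.0413) and quantile normalization (-0.46, limma adjusted p = 0.0146). *Rpl36al* had 108, 115 and 106 FPKM in WT livers and 138, 129 and 138 FPKM in mutant livers, higher by 0.30 (SE 0.047, limma adjusted p = 0.0025), though it did not pass with median-ratio scaling (0.10, limma adjusted p = 0.117) or quantile normalization (0.098, limma adjusted p = 0.183), while its X-linked parent *Rpl36a* was lower at -0.65 (SE 0.048, limma adjusted p = 8.44e-05). All 4 X-linked members had negative fold changes (median -0.48), and 3 of them passed, where 19.6% of all tested genes were lower.

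*Rpl41*, which encodes the smallest ribosomal protein, had 221, 419 and 390.5 FPKM in WT livers and 170.1, 332 and 296 FPKM in mutant livers. Replicate 1 was the lowest liver of both groups and the groups overlapped. The log2 difference of -0.37 (SE 0.342) did not pass (limma adjusted p = 0.392).

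Of 18 translation factors and related proteins whose mRNAs have a TOP start, 12 were lower and none was higher, where 19.6% of all tested genes were lower and 37.4% higher; the median was -0.27. *Eef1b2*, an exchange factor of elongation, had 81.0, 80.9 and 82.3 FPKM in WT livers and 52.6, 45.1 and 50.4 FPKM in mutant livers. The groups were apart, at a log2 fold change of -0.71 (SE 0.060, limma adjusted p = 0.000163). *Eef2*, at the other end of the list, did not pass (0.13, SE 0.051, limma adjusted p = 0.0771) and changed sign under median-ratio scaling and quantile normalization; without WT replicate 2 it passed as higher (0.071, limma adjusted p = 0.0403), the only gene of the list to do so. Of 10 snoRNA host transcripts, which carry the RNAs that guide the modification of ribosomal RNA in their introns, 7 were lower and none was higher, beside the same 19.6% and 37.4% of all tested genes, with a median of -0.56. *Epb41l4aos* had 46.7, 31.0 and 44.9 FPKM in WT livers and 9.92, 11.6 and 11.6 FPKM in mutant livers. All mutant livers were far below the WT range, at a log2 fold change of -1.78 (SE 0.164, limma adjusted p = 0.000238).

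Of 50 factors that assemble the subunits, 17 were higher and 6 lower, where 37.4% of all tested genes were higher and 19.6% lower, with a median of 0.15 beside 0.14. That balance depended on the scaling: 8 were higher and 14 lower with median-ratio scaling, and 7 higher and 17 lower with quantile normalization. Only 3 were lower without WT replicate 2, WT replicate 3 or mutant replicate 2. *Npm1*, the nucleolar chaperone nucleophosmin, had 42.02, 45.3 and 41.2 FPKM in WT livers and 23.5, 22.2 and 22.2 FPKM in mutant livers. It was the lowest of the list at a log2 fold change of -0.89 (SE 0.051, limma adjusted p = 2.94e-05). *Bop1*, which processes the RNA of the 60S subunit, had 4.96, 4.72 and 5.49 FPKM in WT livers and 9.54, 11.1 and 9.86 FPKM in mutant livers. Every mutant liver was higher, at a log2 fold change of 0.88 (SE 0.078, limma adjusted p = 0.000201). Of 20 measured genes of RNA polymerase I, which transcribes ribosomal RNA, 3 were higher and 3 lower (15.0% each, beside 37.4% and 19.6% of all tested genes), with a median of 0.092; *Polr2l*, a subunit shared by the RNA polymerases, was highest at 0.77 (SE 0.121, limma adjusted p = 0.00242) and *Taf1a* lowest at -0.38 (SE 0.096, limma adjusted p = 0.0166), which did not pass without WT replicate 1 (limma adjusted p = 0.0505). Only 1 gene of that list was lower without WT replicate 1 or without WT replicate 3, and with quantile normalization 5 were lower and 2 higher. Of 14 tested genes that control the translation or transcription of ribosomal protein mRNAs, 6 were higher and 2 lower, with a median of 0.22, where 37.4% of all tested genes were higher and 19.6% lower; with median-ratio scaling and with quantile normalization 4 were higher and 4 lower. *Eif4ebp3*, which encodes a protein that binds eIF4E and keeps it from eIF4G and that acts below mTOR, had 2.13, 3.79 and 3.94 FPKM in WT livers and 16.9, 11.6 and 17.7 FPKM in mutant livers. All mutant livers were above the WT range (log2 fold change 1.94, SE 0.231, limma adjusted p = 0.00072), and *Mycl* was lowest at -1.15 (SE 0.229, limma adjusted p = 0.00644). The 78 genes for proteins of the mitochondrial ribosome had a median of 0.020, with 18 higher (23.1%) and 20 lower (25.6%), beside 37.4% and 19.6% of all tested genes (9 and 28 with median-ratio scaling, 4 and 37 with quantile normalization), and ran from *Mrpl9* (-0.82, SE 0.076, limma adjusted p = 0.000242) to *Mrps18a* (1.28, SE 0.072, limma adjusted p = 2.67e-05).

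**Figure D3:**
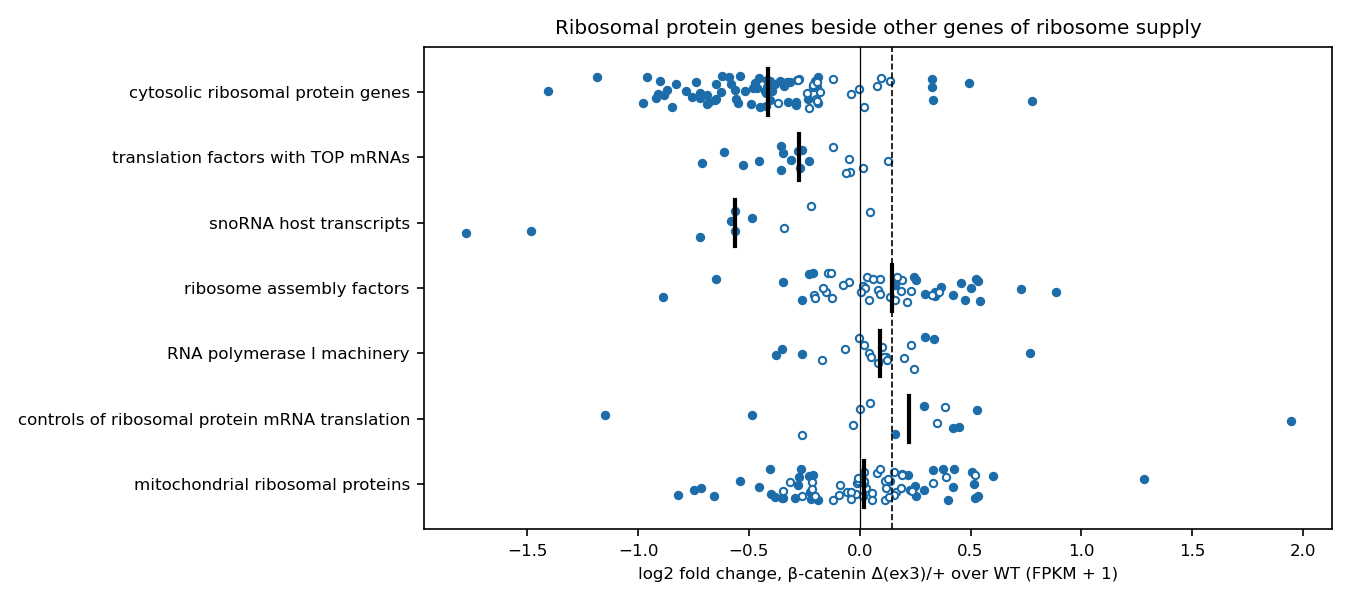
Log2 fold change of each tested gene (points; filled where the limma adjusted p is under 0.05) in the cytosolic ribosomal protein genes and 6 lists of related genes, with each list's median (thick bar), no change (thin line) and the median of all tested genes (dashed line, 0.14). The ribosomal protein genes (median -0.41), the TOP translation factors (-0.27) and the snoRNA hosts (-0.56) lie to the left of the assembly factors (0.15) and the mitochondrial ribosomal proteins (0.020).

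Markers of other cell types also differed between the groups; over all tested genes 19.6% were lower and 37.4% higher, the share beside which each count of markers stands. The 8 genes of the young liver summed to 3844, 3877 and 3912 FPKM in WT livers and 5.63, 6.32 and 5.91 FPKM in mutant livers; all 8 were lower, *H19* was the most abundant, and *Igf2* was listed at 0 in each mutant liver. The 11 measured erythroid genes, led by *Hba-a2*, summed to 3609, 3310 and 3654 FPKM against 1873, 1836 and 1811 FPKM, with 8 of 9 tested lower and *Rhag* listed at 0 in mutant livers. The 7 neutrophil genes, led by *S100a9*, summed to 339, 365 and 353 FPKM against 30.6, 30.9 and 30.03 FPKM, and all were lower. Erythroid precursors and dividing immature cells are rich in ribosomes; the part of these cells and of liver age in the lower ribosomal protein mRNA was not tested. The 6 endothelial genes (*Clec4g* most abundant) summed to 68.6, 69.9 and 69.4 FPKM against 49.9, 49.3 and 50.5 FPKM and the 6 stellate genes (*Dcn*) to 53.7, 55.4 and 55.7 FPKM against 21.1, 20.6 and 23.1 FPKM, all lower. The 5 cholangiocyte genes (*Spp1*) summed to 43.1, 41.6 and 39.6 FPKM against 19.1, 18.5 and 19.3 FPKM, with 2 of 4 tested lower, and the 9 lymphoid genes (*Cd79a*) to 17.2, 18.9 and 18.4 FPKM against 10.1, 11.3 and 10.6 FPKM, with 2 of 6 tested lower and 3 higher. In the other direction, the 8 Kupffer cell genes (*Cd5l*) summed to 220.2, 224 and 228 FPKM against 514, 509 and 505 FPKM, with 7 higher and 1 lower. The 14 cell cycle genes (*Pcna*) summed to 62.0, 57.7 and 58.4 FPKM against 75.9, 74.7 and 73.7 FPKM, with 7 higher (50.0%) and 2 lower (14.3%), beside 37.4% and 19.6% of all tested genes. Of the 7 measured hepatocyte genes, led by *Alb*, 4 were lower and 2 higher, at sums of 72707, 73344 and 70065 FPKM against 34760, 35022 and 34800 FPKM.

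Because 62 of the 84 tested members were lower, where 19.6% of all tested genes were lower, the promoters of members were compared. The RefSeq table for GRCm38.p6 held 59 of the 79 protein-coding genes sought (the 76 members with *Rpsa*, *Fau* and *Rack1*), each from 250 bases before to 50 bases after an annotated start. A C at the start followed by at least 4 pyrimidines was found in 15 of the 59 genes (25.4%) and in 3.01% of 27025 genes with a promoter. The 59 genes had 69 annotated starts, and a gene counted among the 15 if any of its starts matched. The letters CCGGAAG, sought on both strands, stood in 24 of the 59 (40.7%) and in 9.93% of all, CTTTCC in 49.2% and 29.3%, AAGATGGC in 10.2% and 3.19%, CACGTG in 10.2% and 8.09%, and TATAAA in 10.2% and 15.7%. CTTTGAT, letters read by the TCF partners of β-catenin, stood in 0 of the 59 and in 4.29% of all. At so low a share few would be found among 59 genes in any case. The difference was not tested, and sequence outside these promoters was not searched. Of the 15 genes with the pyrimidine start 12 were lower, with a median of -0.36. Of the 44 without it 32 were lower, with a median of -0.41. Over all tested genes 19.6% were lower, and the difference between genes with and without the start was not tested. The split rests on the exact first base of the annotated start. *Rpl27a* and *Rpl7a* had runs of 16 and 7 pyrimidines there but began with T, so they counted as without it. The split therefore cannot sort these genes by whether their mRNA has a TOP start. The windows below run from 50 bases before to 25 bases from the annotated start for members with such a start, 4 of them lower in mutant livers (*Rps27*, *Rps18*, *Rpl35a* and *Rpl38*) and 2 that did not pass (*Rplp2* and *Rps10*). *Rpl35a* also has annotated starts without the pyrimidine run, and only its matching window is printed. Capitals mark the pyrimidine run at the start and, in *Rpl38* and *Rps10*, the letters CCGGAAG before it. They lie at chr3:90213624-90213698 on the minus strand for *Rps27*, chr17:33955641-33955715 on the minus strand for *Rps18*, chr16:33056432-33056506 on the plus strand for *Rpl35a*, chr11:114668530-114668604 on the plus strand for *Rpl38*, chr7:141447601-141447675 on the plus strand for *Rplp2* and chr17:27635220-27635294 on the minus strand for *Rps10*.
Rps27: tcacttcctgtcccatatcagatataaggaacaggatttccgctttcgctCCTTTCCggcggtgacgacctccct
Rps18: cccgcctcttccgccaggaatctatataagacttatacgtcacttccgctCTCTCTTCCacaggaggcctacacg
Rpl35a: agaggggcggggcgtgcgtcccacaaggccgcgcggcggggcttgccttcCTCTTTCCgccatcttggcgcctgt
Rpl38: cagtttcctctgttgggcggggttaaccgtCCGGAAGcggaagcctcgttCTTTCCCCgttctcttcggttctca
Rplp2: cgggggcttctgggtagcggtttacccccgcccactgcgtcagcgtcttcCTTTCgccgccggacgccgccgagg
Rps10: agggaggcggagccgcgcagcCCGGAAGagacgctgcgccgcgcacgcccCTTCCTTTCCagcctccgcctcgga

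Across the 76 protein-coding genes, which share the same 6 libraries, the fold change was compared with properties of the transcripts. Spearman's rho with the log2 fold change was 0.43 for GC content, 0.23 for the length of the coding sequence, 0.23 for the mean FPKM, -0.18 for the number of pseudogene copies and -0.028 for the length of the exons. Among these 76, genes with less GC thus tended to have the larger decreases. GC content was the mean over all annotated transcripts of a gene, and whether fold change follows it over all tested genes was not tested. These are descriptions across genes, which are not independent replicates. These genes lie on 19 chromosomes, and the median log2 fold change was negative on each of them.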

How the data were processed

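RNA was profiled in 3 WT and 3 *β-catenin Δ(ex3)/+* livers, grouped by their titles. The authors deposited FPKM per gene and liver; the submitters' processing notes name cutadapt 1.9, HISAT2 2.0.4, StringTie 1.3.4d, DESeq2 and edgeR. FPKM are not counts, so limma 3.58.1 (R 4.3.3) was fitted to log2(FPKM + 1) of genes with a mean of at least 0.5 FPKM, with an intensity trend and Benjamini-Hochberg adjustment over all of them, and tested on simulated data. Intervals from counting noise would need counts and were not made. Of the 31950 genes, 28911 have the same coordinates in GENCODE M21 (GRCm38), which gave lengths, GC content and gene types. Pseudogene copies were matched with blastn 2.17.0. Python 3.11.15, pandas 2.3.3, numpy 2.4.6 and matplotlib 3.10.9 did the rest. A gene's summed pseudogene signal, and fragments shared between copies, depend on how StringTie assigned fragments with several matches.

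The members and the lists were chosen with earlier results of these data known. Genes named are the 5 members with the highest and lowest fold change, the 5 most abundant, those past both thresholds, the stalk and 5S genes, paralogs with their parents, *Rpsa*, *Rps6*, *Rps19* and *Rpl41*, the extremes of each pathway list, the most abundant gene of each marker list and those at 0, and label checks. *Rps18*, *Rpl23a*, *Rpl21*, *Rpl38*, *Rps10*, *Rpl32*, *Rpl6l*, *Rps3a3*, *Rack1*, *Afp* and *Larp1* were added after their values were seen. Alternatives were a pseudocount of 0.1, no filter, a mean of at least 1 FPKM, median-ratio scaling, quantile normalization, TPM, no trend, a replicate block, each liver left out, members with a mean of at least 10 FPKM, the share without the 50 most abundant genes, and copies summed.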

Additional observations from a re-analysis of the deposited data

How the results depend on the processing

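The lower ribosomal protein genes numbered 56 to 72 under all alternatives run, and their median stayed negative in each. It was -0.49 with TPM, -0.60 with median-ratio scaling and -0.66 with quantile normalization. The number of higher members fell from 5 to 3 with median-ratio scaling, to 2 with quantile normalization, to 3 among members with a mean of at least 10 FPKM and to 3 with copies summed, an alternative chosen after seeing the data. The fall in the last 2 comes from leaving out processed pseudogenes; for the scalings the cause was not tested. The difference in share of FPKM was -0.73 percentage points, and -2.05 without the 50 most abundant genes. Genes past both thresholds numbered 1680, and 2705 with a pseudocount of 0.1.

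Same-numbered livers were not paired (correlations of 0.027, 0.021 and -0.0054). Fitted with a block for each replicate number, 63 members were lower and 5 higher, and *Rpl41* passed (adjusted p = 0.0019), while *Taf1a* (adjusted p = 0.0576) and *Rpsa* (adjusted p = 0.106) did not; lower assembly factors fell from 6 to 2 and lower RNA polymerase I genes from 3 to 1.

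Signs turned for genes with small differences. With median-ratio scaling and quantile normalization these were *Rplp0* (-0.0984 and -0.0872), *Rpsa* (-0.0986 and -0.11), *Eef2* (-0.068 and -0.039) and *Snhg15* (-0.0496 and -0.0372). Fits without a mutant liver also moved *Snhg15*: to -0.0487 without replicate 1, to 0.217 without replicate 2, where it passed, and to -0.0241 without replicate 3. *Rpl10* was 0.0039 with copies summed. Of 688 values of named genes under an alternative, 628 kept direction and side of the threshold, 33 no longer passed and 16 newly passed. The depth is only an estimate, so its limits on low genes were not set.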

Other observations

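Pseudogenes named after a ribosomal protein gene with -ps, left out of the members, numbered 224 in the table, of which 140 were tested. In mutant livers 42 of them were higher and 19 were lower, with a median log2 fold change of 0.23, where 37.4% of all tested genes were higher and 19.6% lower. The summed FPKM of the 224 went the other way, as did that of the members: it was 3342, 3627 and 3647 FPKM in WT livers and 2991, 2958 and 2784 FPKM in mutant livers.

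*Larp1*, which binds TOP mRNAs, had 16.02, 2.83 and 15.4 FPKM in WT livers and 17.7, 5.52 and 17.04 FPKM in mutant livers. Replicate 2 was the lowest liver of both groups, and the log2 difference was 0.35 (SE 0.711, limma adjusted p = 0.702). It was named after its values were seen.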
